A study of Caenorhabditis elegans with 9 samples.

Results

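Chromosome V is the longest chromosome of the nematode Caenorhabditis elegans, and its peaks for the forkhead transcription factor PES-1 are described here. Members are all peaks of the authors' combined list that lie on V, 1126 of 7213 regions. The peaks of V in the lists of replicate 1 (527 of 3488) and replicate 2 (701 of 4185) serve as replicate support. Members were chosen from the listed peaks by position alone. The list itself holds only peaks called by the authors, and the choice was made with earlier results of these data known.

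The chromatin came from hermaphrodites at L4, the last larval stage, grown at 20 °C. All groups shared 1 genotype, the strain OP87, in which an unc-119(ed3) mutation on chromosome III is accompanied by the bombarded transgene wgIs87, holding unc-119(+) and pes-1 fused to TY1, EGFP and 3xFLAG tags. The groups were ChIP of replicate 1 (2 libraries), ChIP of replicate 2 (3 libraries) and input of replicate 1 (4 libraries), with ChIP by a goat antibody to EGFP on extracts of whole worms. The tagged copy is added to the animals' own pes-1, the protein seen is the tagged one, and cell types cannot be separated in whole worms. A region is 1 entry of a peak list with a start, an end and a q-value, the authors' measure of significance corrected for many regions. The lists hold no read counts, so depth is unknown, and each replicate is 1 list, so no spread between libraries can be given. The labels used here do not say how many worm cultures the libraries came from. Differences between parts of V, and between V and the other chromosomes, are therefore given as values with no test. Intervals are exact 95% binomial ones (Clopper-Pearson) and reflect the counting error alone.

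Forkhead proteins bind DNA through a winged-helix domain and control genes in development and metabolism. PES-1 is known in C. elegans from its expression in the early embryo. The worm's autosomes have centres that are rich in conserved genes and recombine little, and arms that recombine more and hold more repeats; on V the arms carry large families of chemoreceptor genes. The chromosomes are holocentric, so no single centromere divides the arms. Positions are on WormBase build WS190. Regions go by their positions, since neither a WS190 genome sequence nor its genes were used here.

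PES-1 peaks were sparser on V than on the other chromosomes combined. The combined list had 53.9 peaks per Mb on V and 76.8 per Mb on the others. Replicate 1 had 25.2 per Mb on V and 37.4 on the others, and replicate 2 had 33.6 on V and 44.0 on the others. V held 15.6% of the combined peaks on 20.9% of the length spanned by the lists. Peaks covered 494 kb of V, or 2.37% of it, against 3.21% of the other chromosomes.

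The regions of V were close in width to those elsewhere but had larger q-values. The median width in the combined list was 338 bp on V and 335 bp elsewhere, and the middle 50% of the widths on V ran from 221 to 516 bp. The median combined q was 1.71e-04 on V and 6.04e-05 elsewhere. A q below 1e-10 was reached by 161 combined peaks of V, or 14.3%, against 18.4% of the combined peaks of all chromosomes. X, the other sparse chromosome, came close to V with 14.2%.

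Replicate support on V was near the pooled value of all chromosomes for replicate 1 peaks. For replicate 2 peaks it was below the pooled value but within the range of the single chromosomes. Of the combined peaks of V, 358 had a peak in each of the replicate lists sharing 1 bp or more, which is 31.8% (interval 29.08 to 34.6%), against 32.7% over all chromosomes. Replicate 1 alone accounted for 156 (13.9%), replicate 2 alone for 254 (22.6%, interval 20.15 to 25.11%), and neither list for 358 (31.8%). Replicate 2 alone accounted for 18.4% on the other chromosomes pooled (17.39 to 19.35%), with 24.7% on II, 24.4% on X and 8.84% on I. Of the 527 replicate 1 peaks on V, 359 overlapped a replicate 2 peak (68.1%, interval 63.95 to 72.08%), beside 67.7% over all chromosomes. Of the 701 replicate 2 peaks, 362 overlapped a replicate 1 peak (51.6%, interval 47.87 to 55.4%), beside 57.3% over all chromosomes. The other chromosomes ran from 48.4% on X and 52.8% on II, both inside the interval of V, to 71.3% on I.

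The regions that both replicates held had the largest median width and the smallest median q. Their widths had a median of 492 bp and their combined q-values one of 7.90e-10. Regions of replicate 1 alone had medians of 374 bp and 5.02e-05, those of replicate 2 alone 296 bp and 3.83e-04, and those in neither list 221 bp and 2.90e-03. An overlap of 1 bp was enough for support, and a wide region reaches it more easily. Of the 161 combined peaks with q below 1e-10, 157 were in both lists and 4 in replicate 1 alone. All of the best 100 combined peaks of V were in both lists, and of the 282 with the largest q none was (0 of 282, with an upper interval bound of 1.3%). How the combined list was made is not stated, so its overlap with the replicate lists is not independent support.

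In each replicate list of V, peaks with smaller q were more often shared with the other list. The lists do not share ChIP libraries, but input was present for replicate 1 alone. The control of each list is not given, so a shared control is possible. The best 50 peaks of replicate 1 all overlapped a replicate 2 peak, and the best 50 of replicate 2 all overlapped a replicate 1 peak. When the replicate 1 list was split by q into 4 groups of nearly equal size, the shared share was 92.4%, 74.2%, 61.4% and 44.7% from the smallest to the largest q. In replicate 2 it was 90.3%, 57.7%, 36.0% and 22.7%. The weakest group of replicate 1 held q-values from 2.30e-03 to 9.80e-03, close to the limit of 0.01 under which every listed peak lies.

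Where both replicates had a region, they ranked it alike in part. V had 357 pairs, each made of a replicate 1 and a replicate 2 peak that overlapped one another more than any other peak. Their midpoints lay a median of 38 bp apart, beside 25 bp on I to 35.5 bp on X elsewhere, and 275 pairs lay within 100 bp. Overlap was required of a pair, so the peak widths limit how far apart its midpoints can lie. The replicate 1 peak was the wider in 249 pairs (69.7%), with median widths of 403 bp in replicate 1 and 356 bp in replicate 2. Spearman's rho between their −log10 q was 0.60 over the 357 pairs, between 0.57 on X and 0.69 on III. This is a description across peaks of 2 lists, and pairs on V share the depth and control of their lists.

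**Figure D1:**
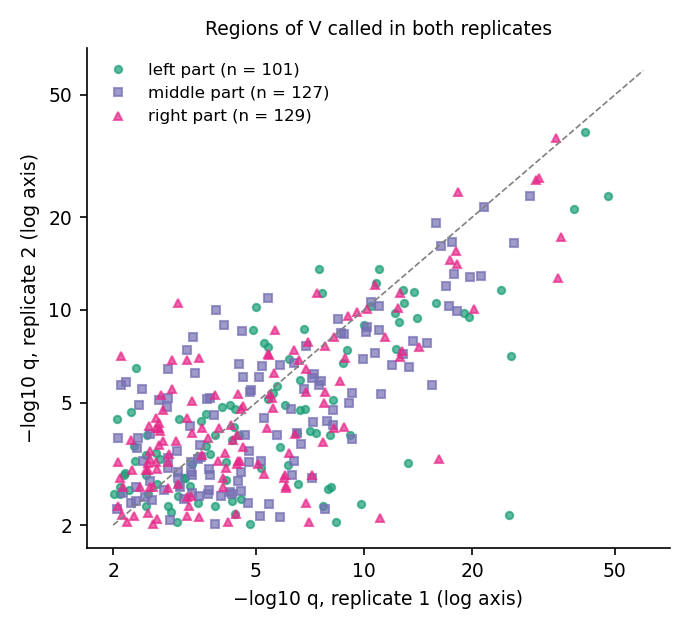
Each point is a region of chromosome V called in both replicates, with −log10 of the q-value in replicate 1 on the horizontal axis and in replicate 2 on the vertical axis (both log axes); symbols mark the 3 equal parts of V and the dashed line marks equal values. The 101, 127 and 129 pairs of the left, middle and right part overlap, and 216 of 357 pairs have the smaller q in replicate 1.

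To compare arms with centre, V was divided into 3 equal parts of 6.96 Mb. The left part ends at 6962748 and the right part begins at 13925497. In the combined list the left part held 356 peaks (31.6%, interval 28.91 to 34.42%), the middle part 350 (31.1%, 28.39 to 33.88%) and the right part 420 (37.3%, 34.47 to 40.2%), against 33.3% for even placement. The right part had 60.3 peaks per Mb, the left 51.1 and the middle 50.3. The excess on the right was seen in the combined list and in replicate 2, where the right part held 268 of 701 peaks (38.2%, 34.62 to 41.94%). Replicate 1 held 180 of 527 peaks there (34.2%, 30.11 to 38.38%) and 183 in the middle (34.7%).

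The centre of V was the least depleted by number. Its share of 31.1% in the combined list was the highest middle share of the 6 chromosomes, which elsewhere ran from 26.1% on X to 30.2% on I. The intervals of V and I overlap widely.

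Peaks in the centre of V had a larger median width and a smaller median q than those of either arm. The median width in the combined list was 330 bp in the left part, 399 bp in the middle and 303 bp in the right. In replicate 1 the medians were 376, 426 and 386 bp, and in replicate 2 they were 302, 328 and 262 bp. The middle had the widest median in all 3 lists. The middle part took 35.4% of the covered length of V in the combined list, beside 34.8% for replicate 1 and 34.7% for replicate 2, more than either arm in each list. The median combined q was 2.77e-04 in the left part, 8.70e-05 in the middle and 1.55e-04 in the right. In the combined list q fell below 1e-10 for 13.5%, 17.4% and 12.4% of the peaks. Median q was also smallest in the middle in replicate 1 (1.21e-04) and replicate 2 (6.32e-04). The shares below 1e-10 were 12.2%, 14.2% and 11.7% in replicate 1, and nearly even in replicate 2, with 6.67%, 6.73% and 6.34%. Wider medians in the middle part were not particular to V, since they were also found on I, II, III and X in the combined list. The smaller median q was also found on X, with 1.50e-04 in the middle against 3.57e-04 on the left and 3.12e-04 on the right.

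The part with the highest replicate support depended on the list. Both replicates held 100 of 356 combined peaks in the left part (28.1%, interval 23.48 to 33.07%), 127 of 350 in the middle (36.3%, 31.24 to 41.57%) and 131 of 420 in the right (31.2%, 26.79 to 35.86%). The 3 intervals overlap, and the middle share is the highest. Between the replicate lists, a replicate 2 partner was found for 62.2% of the replicate 1 peaks in the left part, 69.9% in the middle and 71.7% in the right. A replicate 1 partner was found for 49.0%, 57.0% and 49.3% of the replicate 2 peaks. The left part was lowest in each of these comparisons, while the highest was the middle for replicate 2 peaks and the right for replicate 1 peaks. As a share of the combined peaks, those of replicate 2 alone made up 20.5%, 20.9% and 25.7% of the left, middle and right parts, and those of replicate 1 alone 16.0%, 14.9% and 11.2%. In pairs shared by the replicates, replicate 1 had the smaller q in 65.3% of the left, 63.0% of the middle and 54.3% of the right.

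**Figure D2:**
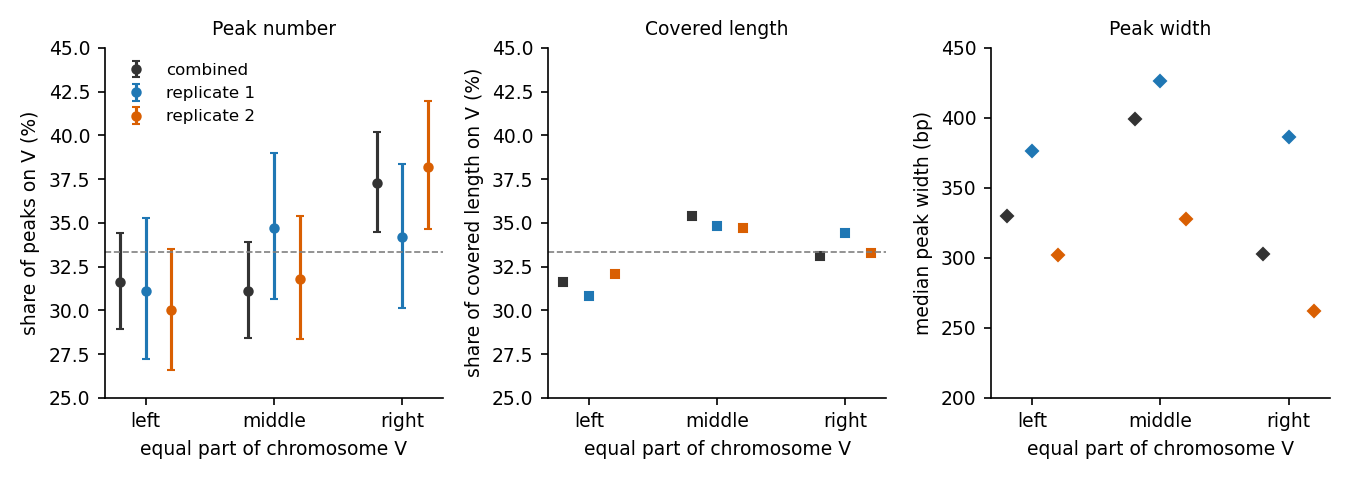
The panels show, for the left, middle and right of 3 equal parts of chromosome V, the share of peaks on V in percent (bars are 95% exact binomial intervals), the share of the covered length in percent and the median peak width in bp; colours mark the combined, replicate 1 and replicate 2 lists and dashed lines mark 33.3%. By number the right part leads in the combined list at 37.3%, while by covered length the middle part leads in all 3 lists.

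In bins of 1 Mb the combined list had a median of 51 peaks, from 31 between 7 and 8 Mb to 98 between 19 and 20 Mb. The last stretch, from 18 Mb to the end, held 236 combined peaks, or 21.0% of those of V (interval 18.62 to 23.46%), on 13.8% of its length. The stretch was marked out after the data were seen, so its high share follows in part from that choice. The interval is no test of it. That is 81.7 per Mb, against 49.4 on the rest of V. Both replicates had more peaks per Mb there than on the rest of V. Replicate 1 had 34.6 per Mb there and 23.7 on the rest of V, and replicate 2 had 50.2 there and 30.9 on the rest. The bin from 19 to 20 Mb was the fullest of each list, with 42 peaks in replicate 1 and 61 in replicate 2.

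The last 1 Mb was less crowded than the stretch as a whole, and the left end was not crowded. The last 1 Mb of V held 67 combined peaks and the first 1 Mb held 51, beside 53.2 and 54.1 per Mb on the rest of the chromosome. A second, lower crest lay in the centre, where the bins from 10 to 11 Mb and from 11 to 12 Mb held 67 and 66 combined peaks. The bin from 10 to 11 Mb had the largest share of peaks held by both replicates, 29 of 67 (43.3%). The bins from 2 to 3 Mb and from 3 to 4 Mb had the smallest shares, with 12 of 54 (22.2%) and 9 of 43 (20.9%).

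The replicates differed most between 17 and 18 Mb. This bin held 14 replicate 1 peaks, the fewest of any 1 Mb bin of V in that list, and 32 replicate 2 peaks, a ratio of 2.29. Elsewhere the ratio of replicate 2 to replicate 1 ran from 0.967 between 13 and 14 Mb to 1.80 between 12 and 13 Mb. Ratios of such counts were not tested, and the depth of the lists is unknown.

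**Figure D3:**
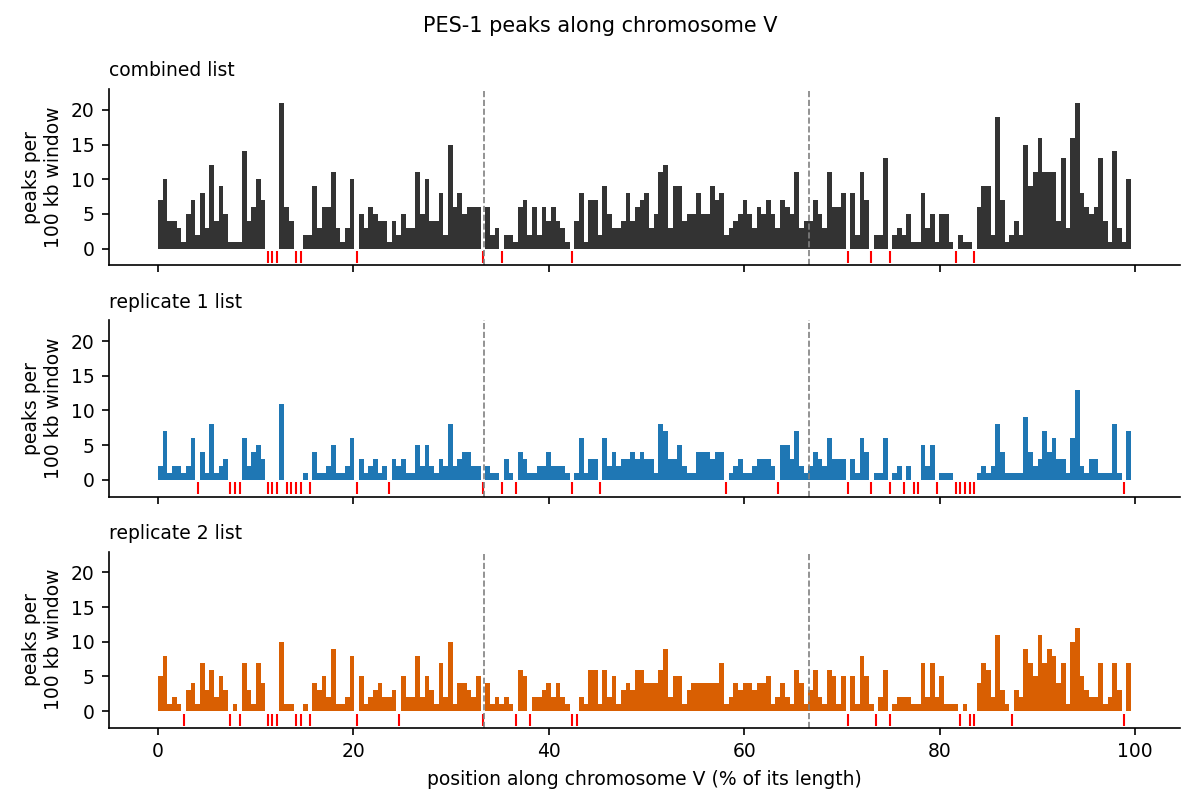
Bars give the number of peaks per 100 kb window along chromosome V, with position as percent of its length, for the combined, replicate 1 and replicate 2 lists. Red ticks mark windows that no peak of that list touches and dashed lines mark the 3 equal parts. The fullest windows of the combined list hold 21 peaks, and 14 of 208 windows are empty.

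V held the longest stretches without a PES-1 peak. In the combined list the longest stretch on V was 310 kb, while the longest on any other chromosome was 226 kb, on X. Of the 10 longest stretches over all chromosomes in the combined list, 8 were on V, and of the 20 longest, 11. The counts on V were lower in the replicate lists. Replicate 1 had 5 of its 10 longest and 7 of its 20 longest on V, with 7 of the 20 on X as well. Replicate 2 had 6 of 10 and 10 of 20 on V. For the single longest stretch, the replicate lists put V first too. The longest stretch was 572 kb on V in replicate 1, where X came next with 358 kb, and 337 kb on V in replicate 2, where I came next with 276 kb. Of the 5 longest stretches, 4 were on V in each of the 3 lists.

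The order of the chromosomes by empty windows was not their order by density. X had fewer peaks per Mb than V in the combined list, 50.8, but 7 of its 177 windows of 100 kb were empty (3.95%), against 14 of 208 on V (6.73%). V thus had 14 of the 26 empty windows of the combined list. In replicate 2, 24 windows of V (11.5%) and 8 of X (4.52%) were empty, at densities of 33.6 and 33.4 per Mb. In replicate 1 the order was turned, with 34 on V (16.3%) and 30 on X (16.9%), at 25.2 and 21.6 per Mb.

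**Figure D4:**
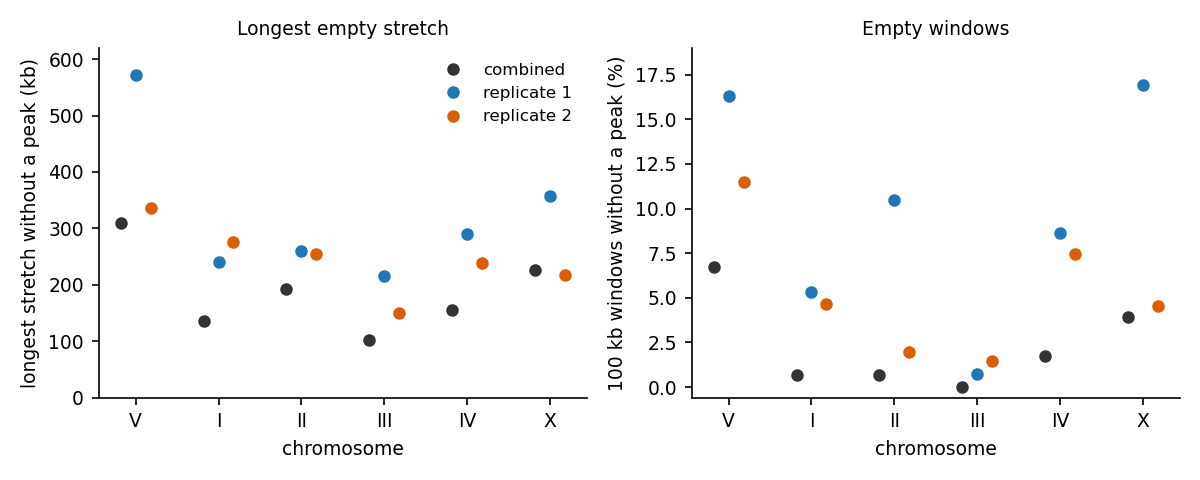
The left panel shows the longest stretch without a peak in kb and the right panel the percent of 100 kb windows without a peak, for chromosome V and each other chromosome; colours mark the 3 lists. V has the longest stretch in every list, at 310 kb in the combined list, and the largest percent of empty windows in the combined list and replicate 2, while X has the largest in replicate 1.

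The 2 longest stretches lay close together in the left part of V. No combined peak was found on chromosome V from 2290657 to 2600583, a length of 310 kb, nor from 2858163 to 3162739, a length of 305 kb. Neither replicate list had a peak in either stretch. The others of the 8 longest were 215 kb (17315477 to 17530420), 198 kb (7237576 to 7435641), 198 kb (15191318 to 15388974), 176 kb (15590480 to 15766196), 170 kb (1610415 to 1780287) and 168 kb (16132282 to 16299899). Of these 6, the stretches at 17315477, 15590480 and 1610415 held no replicate peak either. The stretch at 7237576 held 1 peak of each replicate and those at 15191318 and 16132282 held 1 of replicate 2 each, with q-values of at least 2.32e-03. Of the 14 empty windows of V, 11 were empty in all 3 lists and 3 held a replicate 2 peak. The left part had 7 of the 14, the middle 2 and the right 5.

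Crowding and emptiness met in the right part. Distances over 50 kb between neighbouring combined peaks numbered 34 in the left part, 30 in the middle and 35 in the right, and took 44.6%, 35.4% and 50.1% of the part's length. The median distance was nevertheless shortest on the right, with 5.75 kb, against 7.61 kb on the left and 11.3 kb in the middle. Over the whole of V, 171 of 1125 distances were under 1 kb (15.2%), and 99 were over 50 kb and together took 43.4% of the chromosome, against 38.0% on X and at most 35.3% on the other autosomes. In replicate 1 such distances took 69.2% of V and 71.4% of X, and in replicate 2 they took 63.2% of V and 56.9% of X.

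Between the 2 longest empty stretches lay an island of 31 combined peaks, described after its values were seen. It ran from 2600584 to 2858162 and stood in a span of 872 kb, of which the 2 empty stretches took 615 kb. Its first window, from 2600001 to 2700000, held 21 combined, 11 replicate 1 and 10 replicate 2 peaks, and so was one of the 2 fullest windows of V, whose median window held 5 combined peaks. All 11 replicate 1 peaks of the island were in that window. Replicate 2 had 12 in the island, the last ending at 2858162. The peak with the smallest q, from 2672161 to 2672983, reached q = 1.98e-24 in the combined list. The first peak of the island, from 2600584 to 2600964, reached 4.64e-23. Both were in both replicate lists, as were 6 of the 31 in all, while 15 were in neither.

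The other fullest windows lay mostly toward the right end. The window from 19600001 to 19700000 also held 21 combined peaks, with 13 of replicate 1, 12 of replicate 2 and 10 of the 21 in both. The next were 17900001 to 18000000 with 19 combined peaks, 18800001 to 18900000 and 19500001 to 19600000 with 16 each, 6200001 to 6300000 and 18500001 to 18600000 with 15 each, and 1800001 to 1900000 with 14. The window from 20400001 to 20500000 tied with the last of these at 14, with 8 replicate 1 and 7 replicate 2 peaks. The replicate counts lay furthest apart in 1 of these windows. The window at 18800001 held 3 replicate 1 and 11 replicate 2 peaks, its smallest combined q was 8.36e-08, and 3 of its 16 combined peaks were in both lists.

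Tight clusters were counted as runs of at least 5 combined peaks in which each gap was at most 5 kb. V had 25 clusters with 148 peaks, or 13.1% of its peaks (interval 11.22 to 15.26%), spanning 3.97 to 20.7 kb. Per Mb that was 1.20 clusters in the combined list, more than the 0.904 of X and fewer than the 1.55 of IV and the 4.14 of III. The right part had 13 clusters with 75 peaks (17.9% of its peaks), the left 6 with 36 (10.1%) and the middle 6 with 37 (10.6%). The single replicate lists formed 6 clusters in replicate 1 and 4 in replicate 2. The order of the chromosomes differed there. Replicate 1 had 0.287 clusters per Mb on V, beside 0.286 on IV and 0.199 on I. Replicate 2 had 0.191 on V, beside 0.515 on IV and 0.133 on I.

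The cluster with the most peaks was weak and held more replicate 2 than replicate 1 peaks. It ran from 20115410 to 20123202 and held 10 combined peaks in 7.79 kb, with 1 replicate 1 and 5 replicate 2 peaks. Its smallest combined q was 8.28e-07, 1 of its peaks was in both lists and 5 were in neither. The 2 clusters of 9 peaks were stronger. The one from 1144853 to 1158694 held the second strongest peak of V, with q = 1.38e-69, and 6 replicate 1 and 4 replicate 2 peaks. The one from 10708385 to 10727996 reached 3.26e-23, and 3 of its peaks were in both lists.

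In the cluster from 9076334 to 9097079 no peak was shared by the replicates. Of its 7 combined peaks, 5 were in replicate 1 alone and 2 in replicate 2 alone, and its smallest q was 2.31e-11. The cluster of 7 from 17930182 to 17939178 reached 9.61e-09. Of the 6 clusters with 6 peaks, those from 6240773 to 6249514, from 6342517 to 6352631 and from 13655224 to 13665387 reached 1.23e-16, 1.10e-04 and 3.86e-11. The other 3, all in the right part, ran from 17659181 to 17671536, from 18804761 to 18810787 and from 19602818 to 19614233, and reached 4.82e-15, 2.12e-06 and 2.89e-62. The last of them held the third strongest peak of V, and 4 of its 6 peaks were in both lists. In all, 21 of the 25 clusters had at least 1 peak found in both replicates. A run of 5 or more peaks reaches this readily, since 31.8% of all combined peaks of V were in both lists.

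Clustered and isolated peaks had overlapping intervals of replicate support. Of the 148 clustered peaks, 43 were in both lists (29.1%, interval 21.89 to 37.08%), against 32 of 96 peaks (33.3%, 24.04 to 43.69%) whose neighbours on both sides were over 20 kb away. A q below 1e-10 was reached by 27 clustered peaks (18.2%) and 10 isolated peaks (10.4%). Isolated peaks made up 8.53% of the peaks of V (interval 6.96 to 10.31%), close to the 8.71% of IV, below the 10.3% of X and above the 2.41% of III.

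The strongest regions of V were found in both replicates without exception among the best 20. Of the 20 combined peaks with the smallest q, 6 lay in the left part, 6 in the middle and 8 in the right, and 5 were in clusters. Their widths ran from 471 to 4474 bp, with a median of 1409 bp, and 12 were at least 1000 bp wide. Replicate 1 had the smaller q in 17 of the 20. Of these regions, 16 were among the best 20 of V in replicate 1, 14 in replicate 2 and 10 in both. Set against all chromosomes, V held 1 of the best 10 combined peaks and 3 of the best 20. It held 8 of the best 50 and 11 of the best 100, beside 15.6% of all combined peaks.

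The region with the smallest q was a broad one near the left end. On chromosome V from 723822 to 728295, 4474 bp wide, the −log10 q was 41.4 in replicate 1 and 37.9 in replicate 2, while the combined list gave 84.0. It ranked second on V in replicate 1 and first in replicate 2, and the replicate peaks were 4399 and 4324 bp wide, so both lists gave nearly the same extent. The next combined peak to its left was 36.2 kb away and the next to its right 0.663 kb.

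The second, from 1151040 to 1152135, was the strongest of V in replicate 1, with −log10 q of 47.9, and ranked 6 in replicate 2 with 23.5. A further one of the 20 lay 1.08 kb to its right, from 1153212 to 1155481, with −log10 q of 24.0 in replicate 1 and 11.7 in replicate 2. Both belong to the cluster of 9 peaks at 1144853.

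Toward the right end lay a group of strong regions inside clusters. The peak from 19610097 to 19611981 had −log10 q of 30.7 in replicate 1 and 26.9 in replicate 2. The peak from 20418270 to 20420571 had 34.7 in replicate 1 but 12.7 in replicate 2, where it was called as 2 peaks. The peak from 18967535 to 18968005 had 34.3 in replicate 1 and 36.3 in replicate 2, second of V there, and at 471 bp it was the narrowest of the 20.

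Narrow and broad regions alternated down the list. The peak from 5049229 to 5049954 was 726 bp wide and had −log10 q of 38.6 in replicate 1 and 21.3 in replicate 2. The peak from 14054987 to 14055497 was 511 bp wide and had 35.3 and 17.3. Broad ones were 14685317 to 14688935, 3619 bp wide with 30.1 in replicate 1 and 26.5 in replicate 2, and 15565884 to 15570147, 4264 bp wide with 18.3 and 24.2.

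The middle part entered the list at rank 10. The peak from 10897028 to 10897571 had −log10 q of 29.0 in replicate 1 and 23.4 in replicate 2, with ranks 9 and 7. The peak from 10341764 to 10342711 had 26.1 and 16.6, and that from 9342967 to 9344715 had 15.9 and 19.1. The other middle regions, at 12967822, 9730774 and 11979854, had values between 17.6 and 21.2 in replicate 1 and between 12.8 and 16.6 in replicate 2. All 6 middle regions ranked within the best 32 of replicate 1 and the best 22 of replicate 2.

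Of the 20 regions, 2 fell outside the best 50 of replicate 2. The region from 5843491 to 5846229 had −log10 q of 25.3 in replicate 1, rank 12, and 3.47 at best in replicate 2, rank 275, where it was called as 2 peaks. The region from 1804029 to 1806397 had 25.7 and rank 11 in replicate 1, and 7.08 and rank 89 in replicate 2. Both are broad regions of the left part, 2739 and 2369 bp wide. The last 2, from 18577435 to 18578714 and from 17951084 to 17952026, had 17.3 and 18.1 in replicate 1 and 14.6 and 14.1 in replicate 2.

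**Figure D5:**
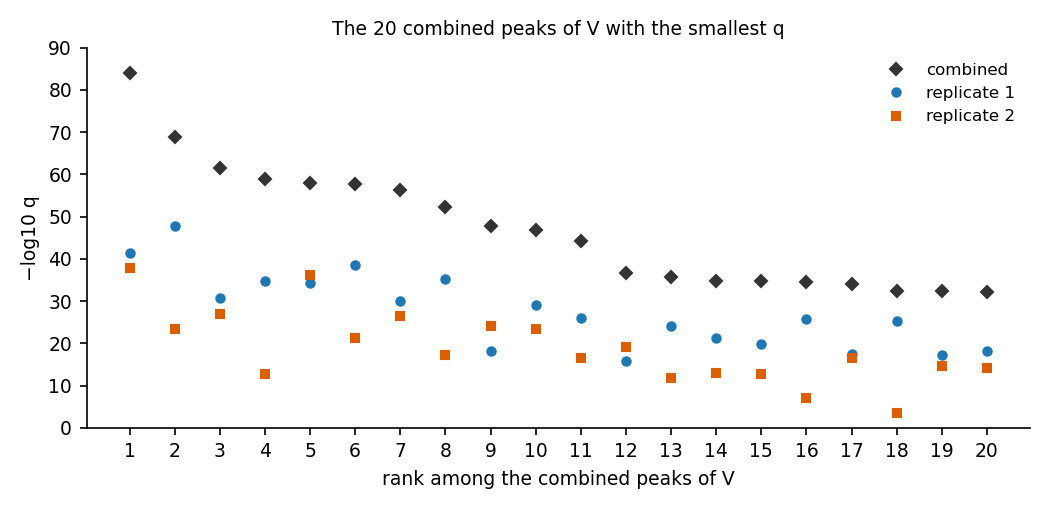
The 20 combined peaks of chromosome V with the smallest q are ordered by rank on the horizontal axis, with −log10 q on the vertical axis in the combined list and the best overlapping peak of replicate 1 and replicate 2. Replicate 1 lies above replicate 2 in 17 of the 20. The widest separations are at ranks 2, 4, 16 and 18. Replicate 1 has 47.9, 34.7, 25.7 and 25.3 there, and replicate 2 has 23.5, 12.7, 7.08 and 3.47.

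Broad regions were a small share of the peaks of V but a larger share of the length its peaks covered. There were 66 combined peaks of at least 1000 bp, 5.86% of those of V and 5.13% of those of the other chromosomes. The single other chromosomes ran from 3.4% on I to 7.44% on X. On V these peaks took 23.3% of the covered length. Both replicates held 46 of them (69.7%, interval 57.15 to 80.41%), against 31.8% of all combined peaks of V. An overlap of 1 bp sufficed, which a wide region reaches more easily than a narrow one. The widest was 4489 bp, from 6225580 to 6230068, with q = 1.34e-32, and 0.211 kb to its left stood another of 3051 bp, from 6222318 to 6225368, with q = 9.46e-26. A single replicate 2 peak, from 6223790 to 6226058, joined the 2.

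Of the 10 widest, 5 were also among the 20 strongest peaks, at ranks 1, 7, 9, 16 and 18. The peaks from 6514943 to 6517724 and from 3578904 to 3581596 had q = 6.15e-15 and 3.25e-29. The remaining one, from 11820540 to 11823017, was 2478 bp wide but had q = 3.84e-03 and ranked 940 of 1126, and no replicate peak overlapped it. Width and q therefore parted in this region. At the other extreme, 66 combined peaks were narrower than 50 bp, 4 of them 1 bp long. Of these 66, 53 were in neither replicate, against 31.8% of all combined peaks of V, and so short a peak overlaps another less easily.

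Regions held by a single replicate were of middling strength. The best combined peaks of V in replicate 1 alone were from 10716491 to 10717995 with q = 4.07e-14, from 9095509 to 9097079 with 2.31e-11 and from 13658476 to 13659026 with 3.86e-11, all in clusters of the middle part. The best in replicate 2 alone were from 17905782 to 17906508 with 2.05e-10, from 9218187 to 9219939 with 1.79e-09 and from 18638087 to 18639000 with 1.09e-08. The best in neither were from 2803176 to 2803777 with 3.09e-07, in the island described above, from 20480997 to 20482285 with 2.80e-06 and from 18822058 to 18822451 with 3.97e-06.

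Within the replicate lists themselves, the strongest peak that lacked a partner ranked 52 on V in replicate 1 and 70 in replicate 2. The replicate 1 peak ran from 10716639 to 10717825, with q = 1.34e-12, and the nearest replicate 2 peak was 0.463 kb away. The next 2 of replicate 1 were at 20414138 to 20414834 and 13658464 to 13659027, with q = 2.09e-11 and 2.28e-10. The replicate 2 peak ran from 19629264 to 19630012, with q = 6.66e-09, and the nearest replicate 1 peak was 5.56 kb away. The next 2 of replicate 2 were at 18684400 to 18684661 and 19009708 to 19010122, with q = 6.64e-08 and 1.15e-07. The combined list held all 6.

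At the ends of V the outermost regions were weak. The first combined peak ran from 7318 to 7505 with q = 1.06e-03, and the last from 20888129 to 20888169 with q = 2.55e-04. Both overlapped a replicate 2 peak and no replicate 1 peak, with replicate 2 q-values of 8.59e-03 and 7.56e-03. Of the 339 replicate 2 peaks of V without a replicate 1 partner, 261 were in the combined list, beside 158 of the 168 replicate 1 peaks without a replicate 2 partner.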

How the data were processed

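The deposited files are 3 peak lists of the authors, of PeakSeq regions (the method column) placed on build WS190, per the file headers. Each peak carries a q-value as deposited, all under 0.01. Not given in the sources used here are the aligner, the PeakSeq version, its control and how the combined list arose. Depth and control both enter a q-value, so a weak region can be absent from a list. Lists were tied to replicates by name. No p-values were computed, and shares are given with exact binomial intervals.

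Python 3.11.15, pandas 2.3.3, numpy 2.4.6 and scipy 1.17.1 were used, with matplotlib 3.10.9 for figures, and the routines were checked on simulated data. The length of V, 20888245 bp, is the last peak end over the 3 lists. Peaks were placed by their midpoints, and a window was empty when no peak touched it. Members, lists and rules were chosen with earlier results of these data known. Regions named are the 20 strongest and 10 widest combined peaks, the 8 longest stretches, fullest windows and largest clusters, the 3 strongest regions of each kind with partial support, and the end peaks, with ties for the last place named too. Bins of 1 Mb, end stretches, isolated and narrow peaks and the island were added after seeing the data. Alternatives changed the overlap needed, the q limit, the lists used, the window size, the cluster rule and the parts of V. The gene table at hand is on another build, so nearest genes and motifs were not analysed here.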

Additional observations from a re-analysis of the deposited data

How the results depend on the processing

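In all, 63 alternatives were run, 11 of them added after seeing the data, and 22 left their value within its interval (for counts, within 1.5 times). For rho, which has no such interval, the range was its value plus or minus 0.046, the standard deviation of rho over the chromosomes. The cause of the moves under the other alternatives was not tested, beyond what each alternative takes away. Combined peaks in both lists were 25.9% at a reciprocal overlap of 50% and 23.6% for q below 1e-10, and 45.6% to 54.4% when 1 replicate sufficed. Replicate 1 peaks found in replicate 2 were 57.3% and 56.7%, replicate 2 peaks found in replicate 1 were 43.1% and 84.8%, and rho was 0.64 and 0.72, under these 2 settings, and rho was 0.67 in the better 50% of peaks by q. The middle part held 37.9% of peaks with q below 1e-10, 35.4% of covered base pairs and, without a replicate, 31.8% to 34.7%; the middle 50% of V held 48.7%. It therefore lies below or above even placement according to the measure. Density on V over that on the other chromosomes, 0.70, was 0.63 in the better 50%, 0.52 for q below 1e-10, 0.68 to 0.76 in single replicate lists, 0.76 without chromosome I and 0.64 against autosomes. Empty windows, 14 on V, were 36 in the better 50%, 108 for q below 1e-10, 24 to 34 in single lists, 88 at 50 kb and 1 at 200 kb. Clusters, 25 with 13.1% of peaks, were 2 with 2.33% in the better 50%, 0 with 0% for q below 1e-10, 4 to 6 with 3.00% to 6.07% in single lists, 12 with 6.39% at gaps of 2 kb, 51 with 32.0% at 10 kb and 116 with 39.6% at 3 peaks. Strongest peaks among the best of both replicates were 10 of 20 and 34 of 50. No paired analysis was possible because each replicate is 1 list. Without read counts, depth limits what a missing peak means.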
